A study of Homo sapiens with 6 samples.

Results

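C3, C1S, CFB, SAA1 and PTX3 are 5 genes of complement and the acute-phase response, out of 13707 genes with values in the table analysed here. They were chosen by name from their read counts and TPM in the libraries titled C against those titled K, so their own difference between C and K is given as a description, without a test. The 6 RNA libraries are from MDA-MB-231, a long-used human line derived from a breast cancer that lacks hormone receptors and HER2; 3 libraries bear the letter C and 3 the letter K. The series set control cells beside cells given colistimethate, the prodrug of the antibiotic colistin, at 20 µM, in 3 repeats. Which letter is which arm is not given, and every library carries the same cell-line label, so differences are stated as C relative to K, with no arm assigned. Libraries are named by letter and replicate, because C3 is also the name of a gene. The study speaks of repeated experiments, but the labels do not say whether replicates of a letter were separate cultures. The p-values therefore weigh the difference between letters only against the variation among these libraries, which may be technical variation.

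Complement is a cascade of plasma proteins that marks and lyses targets. The C1 complex starts the classical pathway through its proteases C1R and C1S, factor B (CFB) supplies the protease of the alternative pathway, and both pathways converge on the cleavage of C3. Acute-phase proteins are secreted at raised levels in inflammation: serum amyloid A1 (SAA1) is one of those made chiefly by the liver, while pentraxin 3 (PTX3) is a long pentraxin made locally by many tissues, and it binds C1q. IL-1, IL-6 and interferons, acting through NF-kB, C/EBP and STAT factors, are known inducers of genes in this group, and epithelial and tumour cells can make complement proteins themselves.

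Depth over the listed genes was 31438065 to 35946691 reads per library. The share of those reads from the mitochondrial genome ran from 3.11% to 3.26% in C and from 4.99% to 5.85% in K. With mitochondrial-genome genes left out, the log2 fold changes were -0.86 for C3, -1.06 for C1S, -0.53 for CFB, -0.78 for SAA1 and 0.34 for PTX3, against -0.86, -1.06, -0.53, -0.78 and 0.35 with them. Defining markers of the cell line that could be read were expressed: CD44, EGFR, AXL, MSN and CAV1 summed to 2376 to 2510 TPM in C and 2094 to 2261 TPM in K. Of these 5, AXL was higher in C (log2 fold change 0.21, SE 0.036, edgeR adjusted p = 0.0318) and CAV1 lower (-0.37, SE 0.043, edgeR adjusted p = 0.0118). The AXL call was lost when any library except K replicate 2 was left out, and the CAV1 call without C replicate 1, K replicate 1 or K replicate 3 (adjusted p up to 0.107 and 0.0615). VIM and the receptors ESR1, PGR and ERBB2 were not analysed here.

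In CPM, a gene's reads scaled to the library total, C3, C1S, CFB and SAA1 were each lower in all 3 C libraries than in any K library, and PTX3 was higher in all 3 C libraries than in any K library. Libraries of the letters did not overlap in CPM for 33.8% of the 9057 genes tested, with C below K for 17.7% and C above K for 16.1%. Since the genes were chosen on this contrast, nothing is read from their count against that share. Log2 fold changes are C minus K from edgeR's quasi-likelihood fit over all tested genes, with the standard error (SE) taken from its F statistic. In bulk RNA, fewer cells that express a gene and less of its RNA per cell cannot be told apart.

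C3 (ENSG00000125730), the protein whose cleavage products coat targets and recruit inflammatory cells, is encoded at chromosome 19, 6677704 to 6730562 on GRCh38, as the deposited table gives it. The C libraries held 7741, 7457 and 7934 reads of C3 in replicates 1 to 3, and the K libraries 13471, 14762 and 13552 reads. Every K library thus had more C3 reads than any C library, and within a letter the libraries lay close together. The level was 234 ± 11.4 CPM in C and 423 ± 9.99 CPM in K (SD, n = 3 each), a log2 fold change of -0.86 (SE 0.044), or 1.81-fold higher in K. Of the tested genes, 1.59% had a lower log2 fold change than C3. None of its 75-base windows in GENCODE release 29 occurred in another gene (0.0% of 8724 windows).

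CFB (ENSG00000243649), which gives the catalytic subunit of the alternative-pathway C3 convertase, lies at chromosome 6, 31945650 to 31952084. It had 430, 506 and 486 reads in C replicates 1 to 3 and 699, 778 and 576 reads in K replicates 1 to 3. K replicate 3 was the lowest K library and C replicate 1 the lowest C library, and the letters still did not overlap. CFB averaged 14.4 ± 1.18 CPM over C and 20.7 ± 2.19 CPM over K (SD, n = 3), a log2 fold change of -0.53 (SE 0.10), the smallest size among the 4 genes that were lower. A gene model on the same strand, AL645922.1, covers 45.0% of its exonic bases and shares 39.7% of its 75-base windows. Reads of CFB could therefore have been split with that model by the counting, and its level is uncertain to that extent.

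C1S (ENSG00000182326), the protease of the C1 complex that cleaves C4 and C2, lies at chromosome 12, 6988259 to 7071032, near C1R. Few reads supported it: 44, 47 and 47 in C replicates 1 to 3, and 103, 110 and 75 in K replicates 1 to 3. K replicate 3 again lay below the other K libraries, at 81.6% of the mean of all 3 K libraries in CPM. C1S averaged 1.39 ± 0.061 CPM over C and 2.91 ± 0.48 CPM over K (SD, n = 3), a log2 fold change of -1.06 (SE 0.17), the widest of the 5 by its fit and also the least precise. Its TPM, which the authors scaled by transcript length, gave a smaller difference. C1S was at 0.636, 0.933 and 1.03 TPM in C replicates 1 to 3 and at 1.57, 1.599 and 1.08 TPM in K replicates 1 to 3, so that C replicate 3 and K replicate 3 almost met. The log2 ratio of the mean TPM was -0.71, against -1.06 from the counts. EMG1, on the same strand, covers 3.54% of the exonic bases of C1S and shares 2.15% of its 75-base windows. The few reads of C1S are uncertain to that extent.

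SAA1 (ENSG00000173432), an apolipoprotein of high-density lipoprotein in inflammation, is encoded at chromosome 11, 18266174 to 18269977. Its counts were 215, 227 and 225 reads in C replicates 1 to 3, and 356, 462 and 333 reads in K replicates 1 to 3. The C libraries agreed closely, while K replicate 2 stood above the other K libraries. SAA1 averaged 6.73 ± 0.23 CPM over C and 11.6 ± 1.19 CPM over K (SD, n = 3), a log2 fold change of -0.78 (SE 0.10), or 1.72-fold higher in K. SAA2, its near-identical neighbour, was not analysed here, and 35.0% of the 862 SAA1 windows of 75 bases also occur in SAA2. The gene model SAA2-SAA4 holds 13.6% of the SAA1 windows, and RNA5SP334, on the same strand, covers 6.41% of the exonic bases of SAA1. The reads of SAA1 are therefore uncertain as those of a single gene. SAA4, the constitutive member of the family, had 0, 1 and 1 reads in C and 1, 3 and 2 reads in K, below the limit for testing.

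PTX3 (ENSG00000163661) went the other way. It lies at chromosome 3, 157436789 to 157443628, and had 6973, 7402 and 6577 reads in C replicates 1 to 3 and 4879, 6346 and 5274 reads in K replicates 1 to 3. In raw reads C replicate 3 and K replicate 2 were near each other, and K replicate 2 was the deepest library. After scaling to library size, C libraries ran from 203 to 220 CPM and K libraries from 155 to 177 CPM. PTX3 averaged 211 ± 8.78 CPM over C and 166 ± 10.8 CPM over K (SD, n = 3), a log2 fold change of 0.35 (SE 0.057), or 1.27-fold higher in C. No window of PTX3 occurred in another gene (0.0% of 1866 windows), and 3.66% of its exonic bases overlap VEPH1 on the opposite strand.

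**Figure D1:**
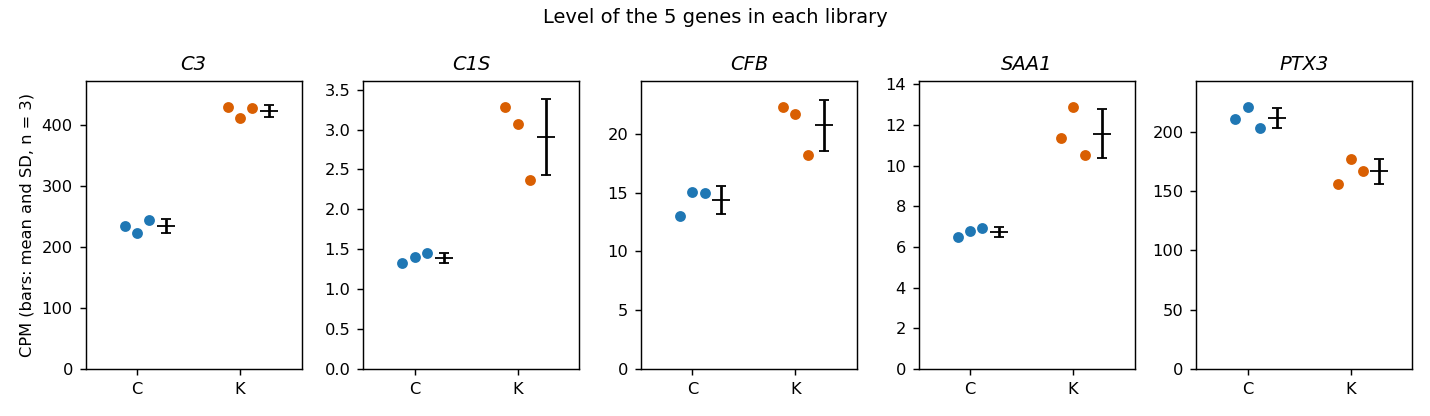
Level of C3, C1S, CFB, SAA1 and PTX3 in CPM (vertical axes from 0, scaled per gene), one point per library in C (blue) and K (orange), with the mean and SD of 3 libraries as a black bar. C libraries lie below K libraries for the first 4 genes (C3 at 234 against 423 CPM) and above them for PTX3 (211 against 166 CPM).

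Per length, PTX3 and C3 were the most abundant of the 5 and C1S was the least. In C the order of mean TPM was PTX3 at 148 ± 6.89, C3 at 61.6 ± 2.78, SAA1 at 14.7 ± 0.35, CFB at 8.24 ± 0.73 and C1S at 0.868 ± 0.21 (SD, n = 3). In K the same order read 115 ± 7.28 for PTX3, 110 ± 2.46 for C3, 24.99 ± 2.17 for SAA1, 11.5 ± 0.91 for CFB and 1.42 ± 0.29 for C1S. The steps between neighbours were wider than the spread of the libraries, except between PTX3 and C3 in K. There the ratio of PTX3 to C3 TPM was 0.970, 1.14 and 1.04 in replicates 1 to 3, so K replicate 1 had slightly more C3 than PTX3. In C that ratio was 2.40, 2.64 and 2.20, with PTX3 well above C3 in each library. The summed TPM of C3, C1S, CFB and SAA1 lay between 83.3 and 89.1 in C and between 146 and 149 in K.

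**Figure D2:**
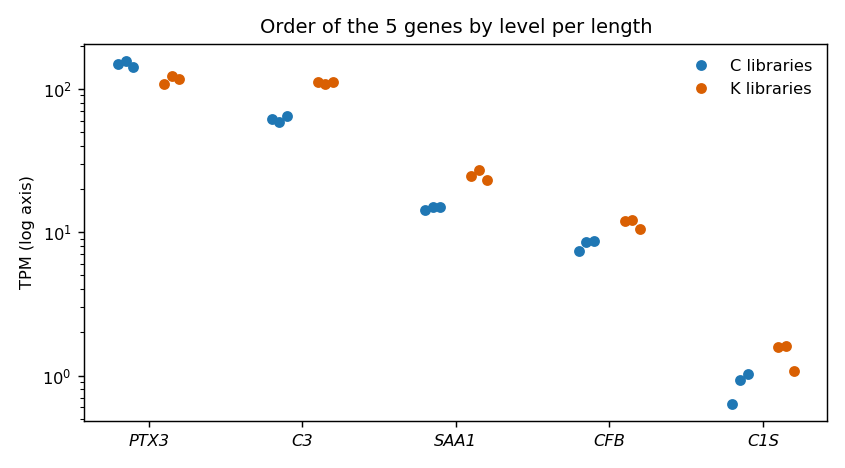
TPM of the 5 genes (log axis), one point per library, C in blue and K in orange. PTX3 and C3 lie apart in C (148 and 61.6 TPM on average) and together in K (115 and 110 TPM), and the other genes keep their order in both letters.

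Counts and TPM moved together for 4 of the genes and less closely for C1S. The number of reads that stood for 1 TPM, after scaling for library depth, varied by 0.0045% (coefficient of variation over 6 libraries) for PTX3, which has 1 annotated transcript. The same value was 0.471% for C3, 1.01% for SAA1 and 2.34% for CFB, against a median of 2.50% over tested genes. C1S, with 21 annotated transcripts, varied by 17.7%, and 6.38% of tested genes varied more. Its reads per TPM were 69.3, 50.04 and 46.3 in C replicates 1 to 3 and 68.3, 62.5 and 72.5 in K replicates 1 to 3, so C replicates 2 and 3 stood below the other libraries. The part of transcript assignment in the difference of C1S was not tested.

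**Figure D3:**
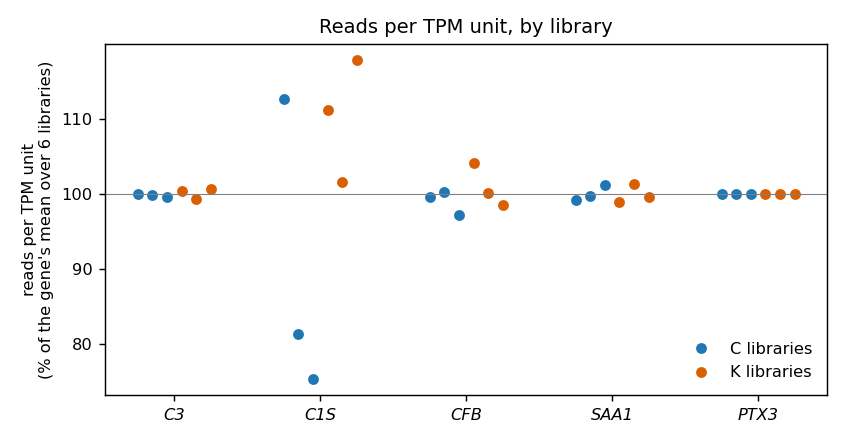
Reads per TPM unit for each gene and library, as a percentage of the gene's mean over 6 libraries (C blue, K orange), after scaling for library depth. C3, SAA1 and PTX3 stay close to 100%, CFB varies slightly, and C1S spreads widely with C replicates 2 and 3 lowest.

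Promoter sequence is shown for CFB and PTX3, the only genes of the group found in RefSeq's promoter table (GRCh38.p14). C3, C1S and SAA1 are named only. Each sequence is the 250 bases before the RefSeq start, 5′ to 3′ on the plus strand, at chr6:31945845-31946094 for CFB and chr3:157436600-157436849 for PTX3. The deposited gene positions begin earlier, at 31945650 for CFB and 157436789 for PTX3. The CFB window therefore lies inside the gene as deposited, and the PTX3 window lies partly inside it. Capitals mark matches, on either strand, to a C/EBP motif (TTNNGNAA), the NF-kB consensus, the interferon-stimulated response element or ISRE (GAAA, any 2 bases, GAAA) and the STAT element GAS (TTCNNNGAA).
CFB: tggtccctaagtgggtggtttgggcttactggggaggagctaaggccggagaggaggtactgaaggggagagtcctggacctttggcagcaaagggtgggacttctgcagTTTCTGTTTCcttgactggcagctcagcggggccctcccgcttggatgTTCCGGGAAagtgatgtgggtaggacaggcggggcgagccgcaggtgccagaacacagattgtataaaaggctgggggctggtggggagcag
PTX3: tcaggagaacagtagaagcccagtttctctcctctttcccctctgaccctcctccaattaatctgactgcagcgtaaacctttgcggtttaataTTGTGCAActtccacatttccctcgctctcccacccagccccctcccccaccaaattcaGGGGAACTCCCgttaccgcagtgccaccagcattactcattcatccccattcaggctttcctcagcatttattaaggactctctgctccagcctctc

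The CFB window held an ISRE match on the minus strand, 140 to 131 bases before the RefSeq start, and a GAS match, 92 to 84 bases before it. The PTX3 window held a C/EBP match 156 to 149 bases before the RefSeq start. It also held NF-kB consensus matches on both strands that overlap each other, 97 to 88 and 96 to 87 bases before that start. Neither the C/EBP motif nor the NF-kB consensus was found in the CFB window, and neither the ISRE nor the GAS in the PTX3 window. Among 35116 promoter windows of the same length, 3.02% held the ISRE, 6.57% the GAS, 5.21% the NF-kB consensus and 33.2% the C/EBP motif. A match describes letters and does not show that a factor binds. Any link of the matches to the direction of either gene was not tested.

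Many other genes of complement and the acute phase had no reads. The lists reported here hold 70 other genes and do not cover these pathways in full. Of the 70, 44 were in the table, and 20 of the 44 had no read in any library. A count of 0 allows a level of up to 0.0954 CPM in the shallowest library, K replicate 1 (3 reads of its total, counting error only). Of the 44, 13 passed the filter on low counts and 31 did not. Among these 13, edgeR's quasi-likelihood test called 0 at an adjusted p of 0.05, and 6 had an unadjusted p under 0.05. DESeq2 gave 12 genes of these lists an adjusted p and called 2, CD59 and C1QBP. The share of all tested genes at that unadjusted limit is not given. Nothing is therefore read from such counts, here or below. Of all 9057 tested genes edgeR called 5.61%, with 3.41% lower and 2.20% higher in C. Since listed genes were left out, the count of 13 is no measure of the pathways as a whole. The background count of 508 genes fell to 77 without C replicate 1, 116 without C replicate 2, 109 without C replicate 3, 117 without K replicate 1 and 99 without K replicate 3, and was 533 without K replicate 2. DESeq2 called 1088 genes, 533 lower and 555 higher in C, against 309 lower and 199 higher by edgeR.

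Of 12 other genes of the C1 complex and the lectin pathway in the table, 5 passed the filter on low counts and 6 had no read. Those 6 were C1QA, C1QB, MBL2, FCN1, FCN2 and FCN3, which recognise antibodies or sugars. COLEC11, a lectin that recognises sugars, had 0, 0 and 6 reads in C and 2, 2 and 2 reads in K, below the limit for testing. C1R, the protease that activates C1S, had 231, 233 and 195 reads in C and 264, 306 and 293 reads in K, with no overlap between letters. It had a log2 fold change of -0.39 (SE 0.099) and did not pass (edgeR adjusted p = 0.0694). C1RL, a related protease, overlapped between letters, with C at 6.64 ± 1.29 CPM and K at 6.79 ± 0.67 CPM (edgeR adjusted p = 0.926). C1R and C1RL overlap by position on the same strand, so their counts are uncertain. MASP1 had few reads, 6, 12 and 12 in C and 33, 18 and 20 in K, with no overlap in CPM. Its log2 fold change of -1.25 (SE 0.42) did not pass (edgeR adjusted p = 0.123). C4B and MASP2 overlapped between letters (log2 fold changes 0.073 and -0.024). Of 5 tested genes in this list 0 were called by edgeR, where 2 had an unadjusted p under 0.05. DESeq2 called 0 of the 4 to which it gave an adjusted p, and MASP1 had none.

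CFD, the protease that cleaves factor B, overlapped between letters, with 277, 245 and 282 reads in C and 214, 266 and 233 reads in K (log2 fold change 0.17, SE 0.10, edgeR adjusted p = 0.323). C5, the start of the terminal pathway, had 180, 214 and 197 reads in C and 252, 256 and 253 reads in K, and did not pass (log2 fold change -0.37, SE 0.10, edgeR adjusted p = 0.0884). C6, C8B and C9, later parts of the lytic pore, had 0 reads, and C7 had 2 reads in C replicate 3 and 0 elsewhere.

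Of 3 regulators reported here and tested, CD59 and CD46 had the highest TPM. CD59, which blocks the lytic pore, was at 340 ± 8.69 TPM in C and 287 ± 18.9 TPM in K (SD, n = 3). Its log2 fold change of 0.22 (SE 0.055) did not pass (edgeR adjusted p = 0.0676), although DESeq2 called it (adjusted p = 0.00786) and so did edgeR without K replicate 2 (adjusted p = 0.0406). CD46, a cofactor for the breakdown of C3b, was at 30.2 ± 0.92 TPM in C and 30.9 ± 1.04 TPM in K (log2 fold change -0.15, SE 0.037, edgeR adjusted p = 0.0648). In TPM the difference of CD46 was smaller, with a log2 ratio of the means of -0.032. SERPING1, the inhibitor of C1R and C1S, and C4BPA, a binder of C4b, had 0 reads. Of the 3 tested regulators edgeR called 0, where 2 had an unadjusted p under 0.05. C1QBP, a mitochondrial protein first described as a C1q binder, was the most abundant gene of the receptor list. It was at 742 ± 47.4 TPM in C and 697 ± 58.6 TPM in K (log2 fold change 0.13, SE 0.030, edgeR adjusted p = 0.0571). DESeq2 called C1QBP (adjusted p = 0.0112), and limma on log2(TPM + 1) did not (0.092, SE 0.077, limma adjusted p = 0.496). C3AR1, the receptor of the C3a fragment, had 25, 39 and 36 reads in C and 56, 44 and 40 reads in K (log2 fold change -0.49, SE 0.25, edgeR adjusted p = 0.270).

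Of the other acute-phase genes, 1 passed the filter on low counts. Of 14 others in the table, 7 had no read in any library, among them the short pentraxins CRP and APCS, the acid glycoproteins ORM1 and ORM2, and the protease inhibitor SERPINA3. SERPINA1, which inhibits neutrophil elastase, was the gene that passed, with 58, 64 and 57 reads in C and 58, 89 and 92 reads in K. Its letters overlapped (log2 fold change -0.42, SE 0.19, edgeR adjusted p = 0.229). LCN2, an iron-scavenging lipocalin, had 0 reads in each C library and 8, 12 and 0 reads in K replicates 1 to 3, below the limit for testing.

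Markers of hepatocytes, of blood cells and macrophages, and of fibroblasts were low or at 0, apart from CD68. Of 9 hepatocyte markers in the table, out of 14 listed, APOA2 and TTR had 0 reads, CYP2E1 alone averaged at least 1 TPM, and the sum was 1.81 to 2.23 TPM in C and 2.23 to 2.97 TPM in K. Of 8 blood and macrophage markers, out of 14 listed, TYROBP, CD3E, MS4A1 and HBB had 0 reads. The sum of 255 to 258 TPM in C and 241 to 278 TPM in K was almost entirely CD68, a lysosomal protein (257 ± 1.89 TPM in C, 261 ± 19.1 TPM in K). The 4 fibroblast markers in the table, out of 8 listed, summed to 2.02 to 3.24 TPM in C and 2.23 to 3.03 TPM in K, most of it COL1A1.

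Cytokines and transcription factors that induce acute-phase genes changed in both directions. Of 18 tested, 5 were lower and 3 higher in C by edgeR, a share of 44.4% against 5.61% of all tested genes, while their median log2 fold change was -0.039 against -0.0044. The list was chosen with earlier results of these data known, so nothing is read from that share. With replicate number as a block in edgeR, 0 of the 18 were called, but only 25 of the 9057 tested genes were called in that fit. IL1B, which drives NF-kB, had 12038, 12459 and 11465 reads in C and 15478, 16790 and 15226 reads in K. Every C library was below every K library, with means of 363 ± 8.68 against 481 ± 12.5 CPM (log2 fold change -0.41, SE 0.033, edgeR adjusted p = 0.00347). IL6, a main inducer of SAA genes in hepatocytes, had 364, 299 and 313 reads in C and 555, 570 and 490 reads in K (log2 fold change -0.73, SE 0.10, edgeR adjusted p = 0.0193). CEBPD, a C/EBP factor of the acute phase, had 477, 526 and 484 reads in C and 671, 759 and 717 reads in K (log2 fold change -0.53, SE 0.063, edgeR adjusted p = 0.0122). These 3 were lower in C, as were IL1A (-0.43, edgeR adjusted p = 0.0433) and LIF (-0.21, edgeR adjusted p = 0.0299).

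Genes of NF-kB subunits in the table were higher in C. RELB had 1486, 1379 and 1383 reads in C and 927, 1120 and 957 reads in K. The letters did not overlap, and the C mean was 42.9 ± 1.91 CPM against 30.3 ± 0.85 CPM for K (log2 fold change 0.50, SE 0.054, edgeR adjusted p = 0.00887). NFKB2 (0.32, SE 0.053, edgeR adjusted p = 0.0297) and NFKB1 (0.22, SE 0.036, edgeR adjusted p = 0.0298) were also higher in C. CEBPB, STAT3, SOCS3 and the receptor chain IL6ST did not pass, with log2 fold changes of -0.039, 0.12, 0.15 and -0.16 (edgeR adjusted p of 0.732, 0.0822, 0.125 and 0.0780), and DESeq2 called STAT3 and IL6ST. The calls of IL1B and RELB were kept in each of the 6 fits that left out 1 library (adjusted p up to 0.0296 and 0.0459), though not in every alternative. The call of CEBPD was lost without C replicate 1, C replicate 3 or K replicate 3 (adjusted p up to 0.0569), and that of IL6 without C replicate 2, C replicate 3, K replicate 1 or K replicate 3 (up to 0.0787). Those of LIF, NFKB1 and NFKB2 were lost when any library except K replicate 2 was left out, and that of IL1A in each of the 6 omissions (up to 0.124 over these 4 genes). The list's count was 2 to 3 without a C library, K replicate 1 or K replicate 3, and 7 without K replicate 2. It was 5 of 17 tested with limma on log2(TPM + 1), 10 of 17 given an adjusted p by DESeq2, and 0 with the replicate block. IL6, IL1A, LIF, NFKB1 and NFKB2, and genes here that did not pass, were named after their values were seen.

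**Figure D4:**
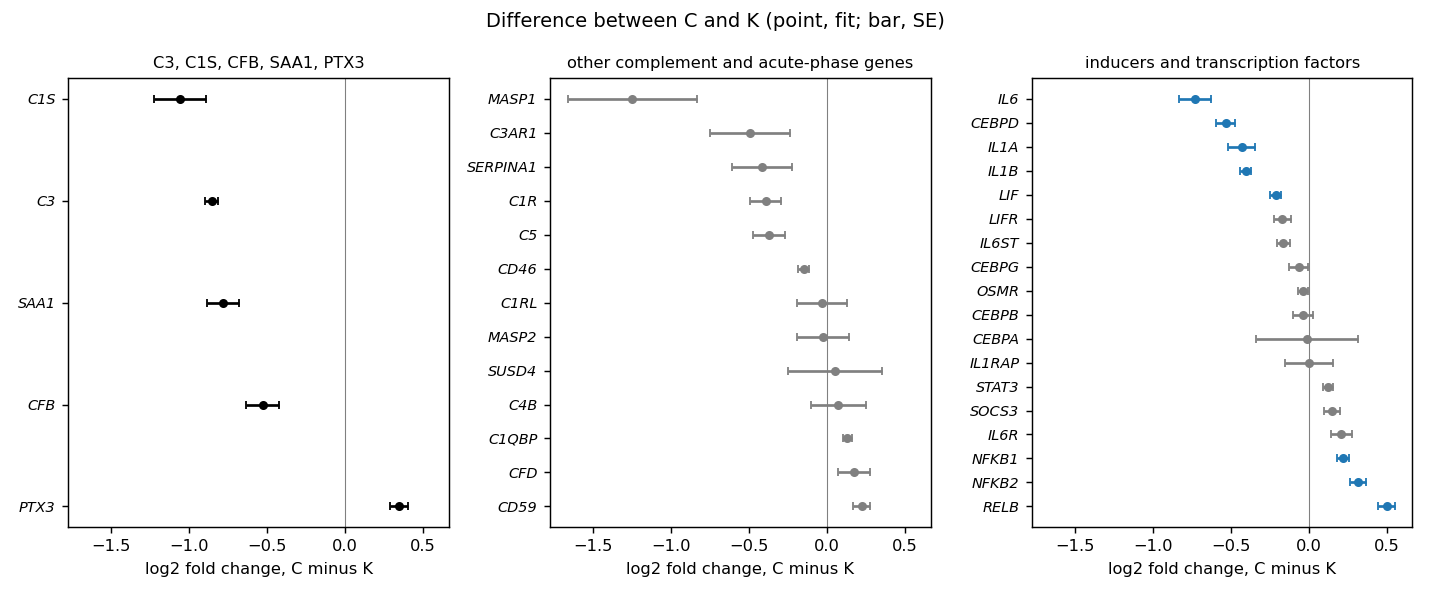
Log2 fold change, C minus K, with SE as a bar, for the 5 genes (black, no test), for 13 other complement and acute-phase genes and for 18 inducers and transcription factors. Blue points passed an edgeR adjusted p of 0.05 and grey points did not: 5 lower and 3 higher genes at the right, and none of the 13 in the middle panel.

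By profiles over the 6 libraries, C3 shared close neighbours with SAA1 and with C1S, while those of CFB and PTX3 were not shared. Likeness was the root mean square difference between centred log2 CPM profiles, searched over 4529 genes at or above the median expression. Closest to C3 were MT-ND6, a respiratory subunit of the mitochondrial genome (0.072), IFIT3, an antiviral protein (0.078), and MT-CO1 (0.080), against a median of 0.45 over the searched genes. SAA1 had MT-ND6 (0.099), IFIT3 (0.103) and PTGES, a prostaglandin synthase (0.104), as its nearest. Of the searched genes, C1S lay nearest to IFIT1 (0.137), then C3 (0.172) and MT-CO1 (0.181), while SAA1, below the expression limit of the search, was 0.163 from it. CFB lay nearest to FBXO32, a ubiquitin ligase (0.079), COL5A1, a collagen chain (0.091), and DMTF1 (0.094). PTX3 was closest to HGH1 (0.051), PRDX1, a peroxidase (0.057), and SOCS7 (0.057), against a median of 0.19. Within the group, C3 and SAA1 were the nearest pair (0.12), and PTX3 was 0.46 to 0.70 from the others. Centring over all 6 libraries keeps the difference between C and K, on which the genes were chosen. Neighbours and distances therefore largely restate that difference, and nothing further is read from them. Likeness apart from the difference between letters was not tested.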

How the data were processed

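Messenger RNA of MDA-MB-231 cells was sequenced in 6 libraries. The authors deposited 1 table with a count, a TPM and an FPKM value per gene and library, per the file headers. The deposited counts are whole numbers and were read as unscaled reads of each gene. The authors' TPM and FPKM scale by transcript length and library total. FPKM was not used. Tools in the submitters' processing notes are HISAT2 2.1.0, StringTie 1.3.3b, FastQC 0.11.2 and Trimmomatic, with build GRCh38. How reads were counted, and whether by strand, is not given in the sources used here, so reads of antisense partners cannot be told apart. The table held 13708 rows, 1 without values. Listed TPM made up 67.1% to 67.9% of the full TPM total. Other genes were not analysed here, and totals are sums over listed genes.

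The test on counts was that of edgeR 4.0.16 (R 4.3.3) (filterByExpr, minimum count 10 and total 15, TMM factors 0.993 to 1.007, quasi-likelihood test, Benjamini-Hochberg over 9057 genes, threshold 0.05). The common biological coefficient of variation was 13.2%. CPM uses the same factors. The steps were tested on simulated data. Alternatives were DESeq2 1.42.0, limma 3.58.1 on log2(TPM + 1) and log2(TPM + 0.1) for genes of mean TPM at least 1, other scaling and filters, a replicate block and leaving out each library. Chosen after seeing the data were an offset for GC content and the omission of mitochondrial-genome genes. Shared 75-base windows and overlaps used GENCODE release 29.

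The 5 genes and the lists were chosen with earlier results of these data known. Some listed genes are not reported here, and list counts leave them out. Named genes were the 5, up to 3 called genes by smallest p and the most abundant gene of each list, the 3 genes of closest profile to each of the 5, and their near copies. Intervals and limits cover counting error only.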

Additional observations from a re-analysis of the deposited data

How the results depend on the processing

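The direction of all 5 genes held in each of 16 alternative settings. Log2 fold changes moved by less than the spread between replicates, except for C1S with limma on log2(TPM + 1) (-0.37) and on log2(TPM + 0.1) (-0.65), where the added constant shrinks low values and the TPM themselves differ less. Without each library in turn they ran from -0.89 to -0.82 for C3, -1.18 to -0.96 for C1S, -0.61 to -0.46 for CFB, -0.85 to -0.70 for SAA1 and 0.30 to 0.39 for PTX3. With the GC offset they were -0.90, -1.07, -0.57, -0.81 and 0.33 in that order. The count of genes called was 25 with the replicate block, 1088 with DESeq2, 279 with limma on log2(TPM + 1) and 265 on log2(TPM + 0.1), and 77 to 533 without each library. Of the other complement and acute-phase genes reported, 0 were called with the replicate block (5 at an unadjusted p under 0.05). DESeq2 called 2 of the 12 to which it gave an adjusted p. On either TPM scale limma called 0 of the 8 it tested (4 at an unadjusted p under 0.05 on each). Without each library 0 to 1 were called, where CD59 was called without K replicate 2. Of 18 inducers and transcription factors, 8 in the reported fit, 0 were called with the replicate block (11 at an unadjusted p under 0.05), where IL1B had an adjusted p of 0.0682 and RELB of 0.102 by edgeR. The cause was not tested. Deviations of same-numbered libraries from their letter means had correlations of -0.089, 0.032 and -0.0043 for replicates 1 to 3. Differently numbered libraries gave -0.081 to 0.083. With 3 libraries per letter, such values cannot show whether same-numbered libraries came from the same experiment. Motif matches were 2 for CFB and 3 for PTX3 in the whole stored window too. C1S rests on few reads, 44 to 110 per library.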
